A study of Mus musculus with 8 samples.

Results

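The genes described here were 10 mouse genes of the ATF4 and amino acid stress response: Atf4, Ddit3, Trib3, Sesn2, Chac1, Asns, Psat1, Phgdh, Shmt2 and Slc7a11. They were taken by name, as the rows whose Ensembl ID maps to these symbols, and all 10 were found among the 42687 genes of the deposited count table. All 10 also passed the filter on low counts, which kept 15197 genes. The cells were a low immunogenic clone of mouse pancreatic cancer cells from KPCY mice, whose alleles include a Cre-activated Trp53 R172H, Pdx1-Cre and a Rosa26 YFP reporter. Pdx1-Cre acts in cells of the pancreatic lineage. All 4 groups share these alleles, the sample labels give the genotype as WT without saying of which gene, and the line is 1 clone, so no other tumour or clone is represented. One group received extracellular vesicles (EVs) labelled ATEVs after pretreatment with Baseline-ZERO DNase at 15 µg/mL (DNase-ATEV below), another received untreated ATEVs at 15 µg/mL, and another received NTEVs, the EVs of non-activated T cells, at 30 µg/mL. ATEVs are read here as the EVs of activated T cells, and the labels set 5 µg/mL of EV-DNA beside the vesicle doses without making plain whether it holds for both kinds of vesicle. The reference cells received PBS. Cells were grown in RPMI with 10% serum, treated in complete DMEM, harvested the next day and reseeded, with the procedure repeated 8 times. Each group had 2 libraries, and nothing in the labels says that these came from separate cultures, so every p-value below rests on library-to-library spread that may be technical rather than biological.

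ATF4 is the transcription factor at the centre of the integrated stress response. When amino acids run short, the endoplasmic reticulum is stressed, haem is lacking or double-stranded RNA is present, the kinases GCN2, PERK, HRI and PKR phosphorylate the translation factor eIF2 alpha, which slows most translation while favouring that of Atf4 mRNA. ATF4 then raises genes for amino acid synthesis, amino acid import, tRNA charging and redox defence, many of them through a composite C/EBP-ATF response element, and because much of its own control is translational its mRNA need not follow its activity. Pancreatic tumours are known for scarce nutrients and for a reliance on cystine import.

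The promoters of the members that hold the core of that element are shown because the element is what ATF4 is known to bind at them. Promoters were 300 bases each, 250 before to 50 after the start site (RefSeq, GRCm38.p6), and the motif searched was TGATGNAA on both strands. It was present in 4 of 11 promoters of the 10 members (36.4%), against 3.97% of all 32851 promoters in the table. The members were taken by name as genes of this response, so the higher share is no separate finding. The matches are in capitals below; Trib3 and Chac1 hold theirs on the strand opposite to the gene, and Slc7a11 holds 1 on each strand.
Asns: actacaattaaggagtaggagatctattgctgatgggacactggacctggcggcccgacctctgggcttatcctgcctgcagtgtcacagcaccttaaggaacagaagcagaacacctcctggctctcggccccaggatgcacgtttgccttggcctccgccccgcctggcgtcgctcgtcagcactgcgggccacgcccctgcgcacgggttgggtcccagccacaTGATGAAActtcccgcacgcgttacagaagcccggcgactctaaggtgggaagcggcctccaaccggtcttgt
Trib3: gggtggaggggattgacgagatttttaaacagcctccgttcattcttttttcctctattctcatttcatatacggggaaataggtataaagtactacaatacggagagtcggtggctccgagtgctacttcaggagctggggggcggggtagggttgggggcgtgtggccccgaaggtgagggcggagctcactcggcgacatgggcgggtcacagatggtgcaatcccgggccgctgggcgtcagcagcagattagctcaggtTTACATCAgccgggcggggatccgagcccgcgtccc
Chac1: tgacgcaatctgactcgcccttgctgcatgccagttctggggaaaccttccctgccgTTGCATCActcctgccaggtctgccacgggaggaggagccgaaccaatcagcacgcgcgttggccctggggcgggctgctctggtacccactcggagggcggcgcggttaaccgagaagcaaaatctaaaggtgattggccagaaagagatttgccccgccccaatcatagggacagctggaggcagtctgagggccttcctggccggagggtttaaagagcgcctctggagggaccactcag
Slc7a11: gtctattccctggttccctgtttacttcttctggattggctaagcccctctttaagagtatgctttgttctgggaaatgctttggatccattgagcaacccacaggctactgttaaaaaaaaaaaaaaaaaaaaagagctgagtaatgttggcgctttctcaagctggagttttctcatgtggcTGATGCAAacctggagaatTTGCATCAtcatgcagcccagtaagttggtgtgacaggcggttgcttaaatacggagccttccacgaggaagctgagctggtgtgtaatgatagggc
These windows are chr6:7693160-7693459 on the minus strand for Asns, chr2:152344011-152344310 on the minus strand for Trib3, chr2:119350992-119351291 on the plus strand for Chac1 and chr3:50443564-50443863 on the minus strand for Slc7a11. Counted from the start site, the match begins at -23 in Asns, at 15 in Trib3 and at -193 in Chac1, and at -66 and -47 in Slc7a11. The other 6 genes had no match in this window, which says only that these letters are not there. A match is a description of the sequence and was not tested as a binding site.

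Library totals ran from 34385326 counts, in PBS replicate 2, to 52451398 counts, in PBS replicate 1. No member was at 0 in any library. The 7 epithelial markers (Krt7, Krt8, Krt18, Krt19, Epcam, Cdh1, Sox9) were all detected, with summed levels of 8407 to 9080 CPM in DNase-ATEV, 8282 to 9977 CPM in ATEV, 9889.9 to 11122 CPM in NTEV and 9586 to 10612 CPM in PBS. The 9 T cell markers summed to 2.17 to 6.51 CPM over all libraries, and 2 of them were at 0 in every library. CPM here are the usual depth-scaled counts with the TMM factors applied.

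The levels per kilobase of exon put the members in 2 tiers in PBS cells. Phgdh was highest at 186 ± 2.32 CPM per kb (SD, n = 2), then Atf4 at 156 ± 6.41, Psat1 at 124 ± 3.81, Shmt2 at 108.0 ± 8.40 and Asns at 73.6 ± 11.3 CPM per kb, with no overlap between neighbours in this order. Trib3 followed at 12.5 ± 5.34, Slc7a11 at 11.5 ± 1.09, Chac1 at 9.89 ± 4.30 and Ddit3 at 8.66 ± 1.25 CPM per kb, and these neighbours did overlap. Sesn2 was lowest at 5.31 ± 1.16 CPM per kb. The lengths are unions of annotated exons, so a gene with long annotated exons that these cells do not use is given too low a level.

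Exposure to vesicles was not followed by a change in any member that passed the test. With edgeR's quasi-likelihood test and Benjamini-Hochberg adjustment over all 15197 genes, 0 of 10 members had an adjusted p under 0.05 in each of the 7 comparisons. Over all genes the called share was 3.01% in DNase-ATEV against PBS, 5.19% in ATEV against PBS, 1.11% in NTEV against PBS and 6.36% for the 3 vesicle groups together against PBS. It was 1.19% in ATEV against NTEV, 0.665% in DNase-ATEV against ATEV and 0.0526% in DNase-ATEV against NTEV. DESeq2 also called 0 of 10 members in each comparison. At an unadjusted p under 0.05 there was 1 member, Sesn2 in DNase-ATEV against PBS, and 0 in the other comparisons. That unadjusted threshold was met by 24.7% of all genes in DNase-ATEV against PBS, 21.9% in ATEV against PBS, 19.1% in NTEV against PBS and 27.4% for the vesicle groups together, and by 8.23% in ATEV against NTEV, 11.3% in DNase-ATEV against ATEV and 10.0% in DNase-ATEV against NTEV. An exact permutation test of 2 libraries against 2 cannot go below p = 0.333, and of 6 against 2 not below p = 0.0357. In bulk RNA, fewer cells expressing a gene and less of its RNA per cell cannot be told apart.

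**Figure D1:**
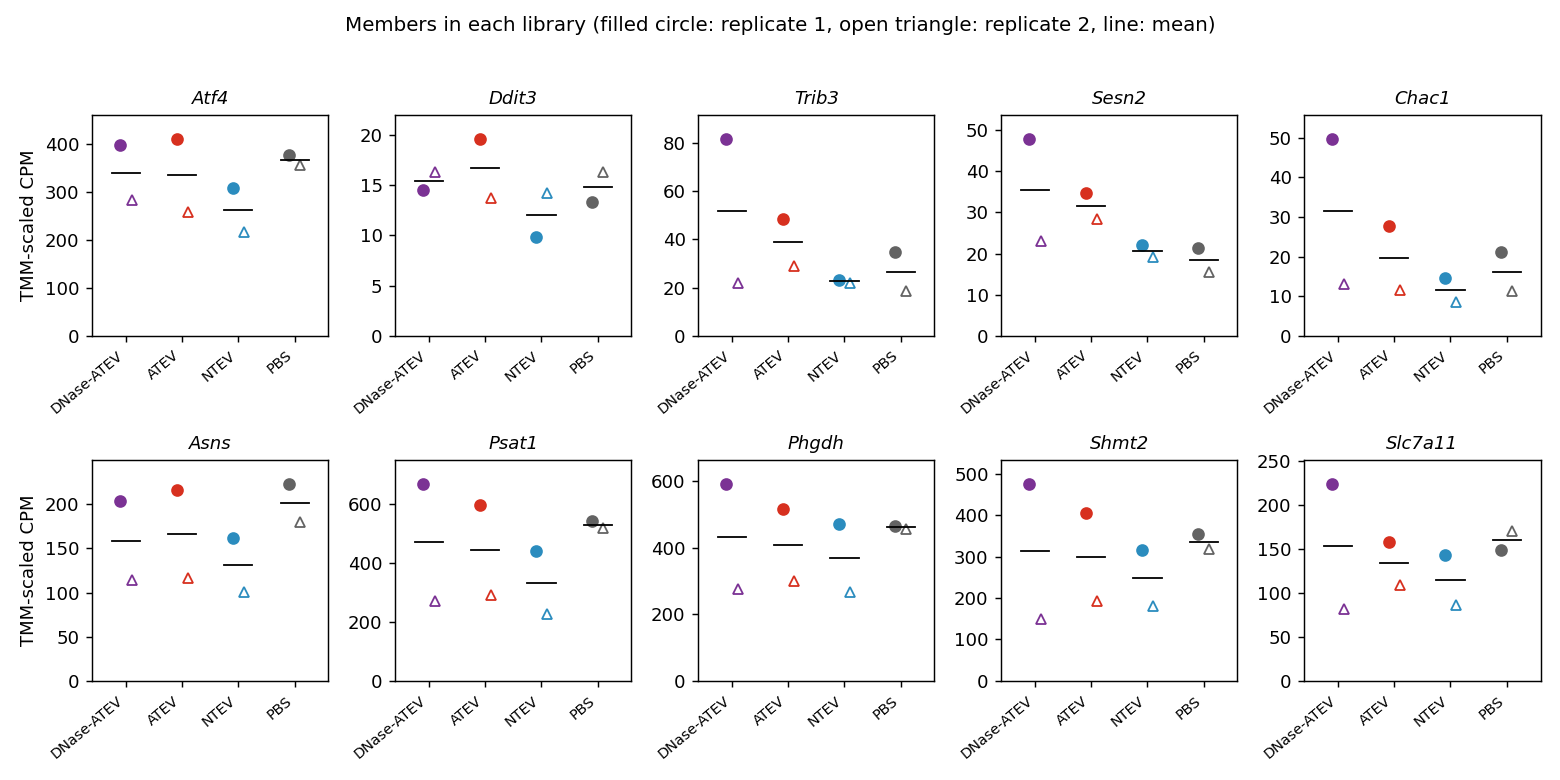
TMM-scaled CPM (vertical axis, from 0) of each member in the 8 libraries, by group on the horizontal axis, with replicate 1 as a filled circle, replicate 2 as an open triangle and the mean as a line. In all 3 vesicle groups replicate 1 lies above replicate 2 for each member except Ddit3, for which this holds in ATEV alone. The widest gap in CPM is 668 against 271 for Psat1 in DNase-ATEV. By ratio it is 49.8 against 13.0 CPM for Chac1 in DNase-ATEV.

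Atf4, the factor itself, had 398 and 283 CPM in DNase-ATEV, 412 and 258 CPM in ATEV, 308 and 217 CPM in NTEV, and 378 and 356 CPM in PBS. The DNase-ATEV and ATEV libraries lay on both sides of the PBS libraries, and both NTEV libraries lay below them. Against PBS its log2 fold change was -0.11 ± 0.28 (SE) in DNase-ATEV, -0.13 ± 0.28 in ATEV and -0.48 ± 0.28 in NTEV, with edgeR adjusted p-values of 0.833, 0.819 and 0.358.

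Ddit3 encodes CHOP, a C/EBP-family factor that ATF4 induces under prolonged stress. It had 14.5 and 16.3 CPM in DNase-ATEV, 19.7 and 13.7 CPM in ATEV, 9.85 and 14.2 CPM in NTEV, and 13.3 and 16.4 CPM in PBS. Its libraries overlapped those of PBS in each vesicle group. Its log2 fold change was 0.05 ± 0.26 in DNase-ATEV, 0.17 ± 0.26 in ATEV and -0.30 ± 0.26 in NTEV (SE, against PBS).

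Trib3 encodes a pseudokinase that ATF4 and CHOP induce and that restrains ATF4. It had 81.8 and 21.7 CPM in DNase-ATEV, 48.4 and 29.1 CPM in ATEV, 23.3 and 21.8 CPM in NTEV, and 34.6 and 18.6 CPM in PBS. DNase-ATEV replicate 1 stood above all other libraries, while DNase-ATEV replicate 2 lay within the PBS values. The log2 fold change against PBS was 0.96 in DNase-ATEV, with a 95% interval of -0.43 to 2.35 and an edgeR adjusted p of 0.345.

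Sesn2 encodes sestrin 2, a leucine-binding inhibitor of mTORC1 signalling that is also a p53 target. It had 48.0 and 22.9 CPM in DNase-ATEV, 34.7 and 28.3 CPM in ATEV, 22.0 and 19.2 CPM in NTEV, and 21.3 and 15.6 CPM in PBS. It was the only member whose DNase-ATEV and ATEV libraries all lay above both PBS libraries, which 29.7% of all genes did in DNase-ATEV and 25.2% in ATEV. The log2 fold change against PBS was 0.94 ± 0.34 (SE; 95% interval 0.14 to 1.75) in DNase-ATEV, with an edgeR adjusted p of 0.156. Without the filter on low counts its edgeR adjusted p there was 0.0341, the only fit in which a member passed. The log2 fold change was 0.35 without DNase-ATEV replicate 1, 1.39 without DNase-ATEV replicate 2, 1.17 without PBS replicate 1 and 0.73 without PBS replicate 2, with edgeR adjusted p-values of 0.114 to 0.515. In ATEV the log2 fold change was 0.77 ± 0.34 (edgeR adjusted p = 0.247), and in NTEV, where the libraries overlapped those of PBS, it was 0.16 ± 0.34 (edgeR adjusted p = 0.796).

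Chac1 encodes an enzyme that degrades glutathione and is induced by ATF4. It had 49.8 and 13.0 CPM in DNase-ATEV, 27.6 and 11.6 CPM in ATEV, 14.6 and 8.54 CPM in NTEV, and 21.2 and 11.2 CPM in PBS. As for Trib3, the highest value was DNase-ATEV replicate 1, and the second DNase-ATEV library lay between the PBS libraries. Its highest level was 5.83 times its lowest over the 8 libraries, the widest ratio among the members. The log2 fold change against PBS was 0.95 (95% interval -0.66 to 2.56) in DNase-ATEV, 0.27 (-1.33 to 1.88) in ATEV and -0.49 (-2.10 to 1.13) in NTEV.

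Asns encodes asparagine synthetase, the classical target of the amino acid response. It had 203 and 114 CPM in DNase-ATEV, 216 and 117 CPM in ATEV, 162 and 100.02 CPM in NTEV, and 223 and 179 CPM in PBS. The second library of each vesicle group lay well below both PBS libraries, and the first one lay between them in DNase-ATEV and ATEV and below them in NTEV. The log2 fold change against PBS was -0.35 ± 0.39 in DNase-ATEV, -0.27 ± 0.39 in ATEV and -0.62 ± 0.39 (SE) in NTEV, with edgeR adjusted p-values of 0.598, 0.718 and 0.393.

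The serine pathway members also had a high first and a low second library in each vesicle group. Phgdh, the first enzyme of serine synthesis from glucose, had 593 and 275 CPM in DNase-ATEV, 516 and 299.9 CPM in ATEV, 471 and 268 CPM in NTEV, and 466 and 457 CPM in PBS. Psat1, the aminotransferase of the next step, had 668 and 271 CPM in DNase-ATEV, 596 and 292 CPM in ATEV, 439 and 225 CPM in NTEV, and 541 and 518 CPM in PBS. In both genes the PBS libraries were close together, and in DNase-ATEV and ATEV the first library lay above them and the second below them. Shmt2, the mitochondrial enzyme that turns serine into glycine and a folate-bound carbon unit, had 476 and 150.4 CPM in DNase-ATEV, 405 and 193 CPM in ATEV, 316 and 182 CPM in NTEV, and 354 and 317 CPM in PBS. Its NTEV libraries both lay below the PBS libraries, the upper one by less than 2 CPM. The largest of these log2 fold changes was that of Psat1 in NTEV against PBS, at -0.67 ± 0.51 (SE), with an edgeR adjusted p of 0.464.

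Slc7a11 encodes the light chain of the cystine-glutamate exchanger and is also a target of the redox factor NRF2. It had 224 and 81.9 CPM in DNase-ATEV, 157 and 109 CPM in ATEV, 143 and 86.5 CPM in NTEV, and 149 and 170.5 CPM in PBS. It differed from the serine genes in PBS, where replicate 2 was the higher library. Its log2 fold change against PBS was -0.06 ± 0.46 in DNase-ATEV, -0.26 ± 0.46 in ATEV and -0.48 ± 0.46 (SE) in NTEV.

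Read over the 10 members, the direction against PBS rested on single libraries in DNase-ATEV and ATEV and was negative in NTEV. The median log2 fold change was -0.08 in DNase-ATEV against PBS, -0.15 in ATEV against PBS and -0.46 in NTEV against PBS, where the medians of all genes tested were 0, -0.019 and -0.00062. Without DNase-ATEV replicate 1 the member median in DNase-ATEV was -0.52, and without DNase-ATEV replicate 2 it was 0.44. Without ATEV replicate 1 the median in ATEV was -0.48, and without ATEV replicate 2 it was 0.22. In NTEV it was -0.79 without NTEV replicate 1 and -0.18 without NTEV replicate 2. In NTEV against PBS, 1 of 10 members had a positive log2 fold change and 9 a negative one, where 49.8% of all genes were positive. There, 5 of 10 members (Atf4, Asns, Psat1, Shmt2, Slc7a11) had both NTEV libraries below both PBS libraries, against 30.9% of all genes. The 3 comparisons share the PBS libraries and are therefore not independent of one another.

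**Figure D2:**
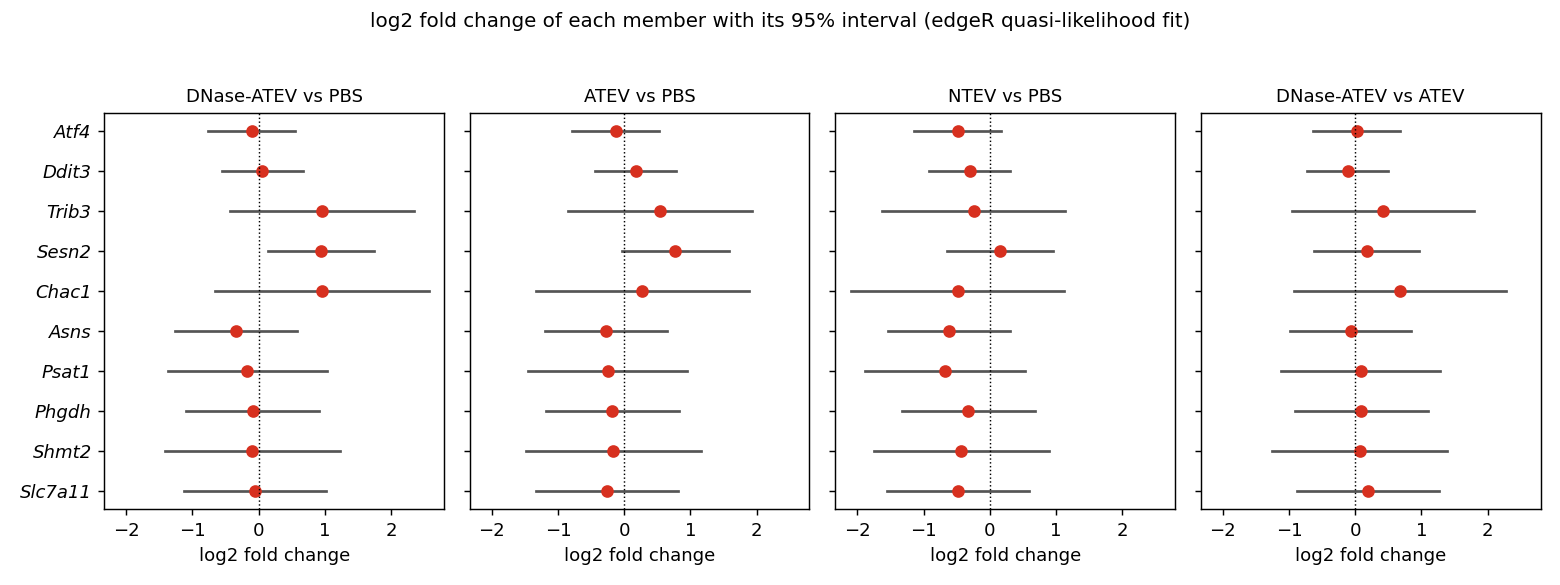
Log2 fold change (horizontal axis) of each member (vertical axis) in 4 comparisons, with points for the edgeR estimate and bars for the 95% interval. The interval of Sesn2 in DNase-ATEV against PBS, 0.14 to 1.75, is the only 1 of those drawn that does not include 0.

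Between vesicle groups the comparisons ask whether T cell activation and the DNA on or in the vesicles matter to the response. In ATEV against NTEV all 10 members had a positive log2 fold change, with a median of 0.39 against 0.01 over all genes, of which 51.6% were positive. No member passed the test, the edgeR adjusted p of each was at least 0.815, and the NTEV dose in vesicles was higher, so vesicle source and dose cannot be told apart. The ATEV libraries lay above both NTEV libraries for 2 members, Trib3 and Sesn2, against 13.7% of all genes. The member median was -0.020 without ATEV replicate 1, 0.083 without NTEV replicate 2, 0.72 without ATEV replicate 2 and 0.70 without NTEV replicate 1. In DNase-ATEV against ATEV the median log2 fold change was 0.08, against 0.01 over all genes, and the libraries of the 2 groups overlapped for all 10 members, while they did not overlap for 36.2% of all genes. That median was -0.58 without DNase-ATEV replicate 1, 0.58 without DNase-ATEV replicate 2, 0.48 without ATEV replicate 1 and -0.27 without ATEV replicate 2. The 95% intervals there ran from -0.72 to 0.49 for Ddit3, which had the narrowest, and from -0.93 to 2.28 for Chac1, which had the widest. A 2-fold increase lay inside the interval of 6 of 10 members. In DNase-ATEV against NTEV all 10 members were again positive in log2 fold change, with a median of 0.40 against 0.01 over all genes, of which 51.6% were positive. The largest was Chac1 at 1.44 ± 0.69 (SE; edgeR adjusted p = 0.548), and the DNase-ATEV libraries lay above both NTEV libraries for Ddit3 and Sesn2, against 20.3% of all genes. The member median there was -0.11 without DNase-ATEV replicate 1, 0.12 without NTEV replicate 2, 0.94 without DNase-ATEV replicate 2 and 0.78 without NTEV replicate 1. Leaving out 1 library turned the sign of 5 members in ATEV against NTEV and of 6 members in DNase-ATEV against NTEV. Set side by side by replicate number, ATEV lay above NTEV under both numbers for 9 of 10 members, against 34.9% of all genes, and DNase-ATEV above NTEV for 7 of 10, against 35.6%, although the labels do not pair the libraries.

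Libraries of 1 group differed widely in these genes. For 9 of 10 members replicate 1 was higher than replicate 2 in all 3 vesicle groups, which held for 32.1% of all genes tested. The exception was Ddit3, which was higher in replicate 1 in ATEV and in replicate 2 in DNase-ATEV and NTEV. The median gap over the members was a log2 difference of 1.20 in DNase-ATEV, 0.76 in ATEV and 0.71 in NTEV, against 0.12 in PBS. Over all genes the median gap was -0.0041 in DNase-ATEV, 0.013 in ATEV, 0.0077 in NTEV and -0.015 in PBS. The gap was at least 2-fold for 7 of 10 members in DNase-ATEV, against 2.30% of all genes, and for 3 of 10 in ATEV, against 4.44% of all genes. It reached 2-fold for 0 of 10 members in NTEV and in PBS, against 2.90% and 3.15% of all genes. The largest single gaps were those of Chac1 and Trib3 in DNase-ATEV, at log2 differences of 1.94 and 1.91, and the gap of Chac1 in PBS was 0.91. With 2 libraries a group no test of these gaps was made.

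**Figure D3:**
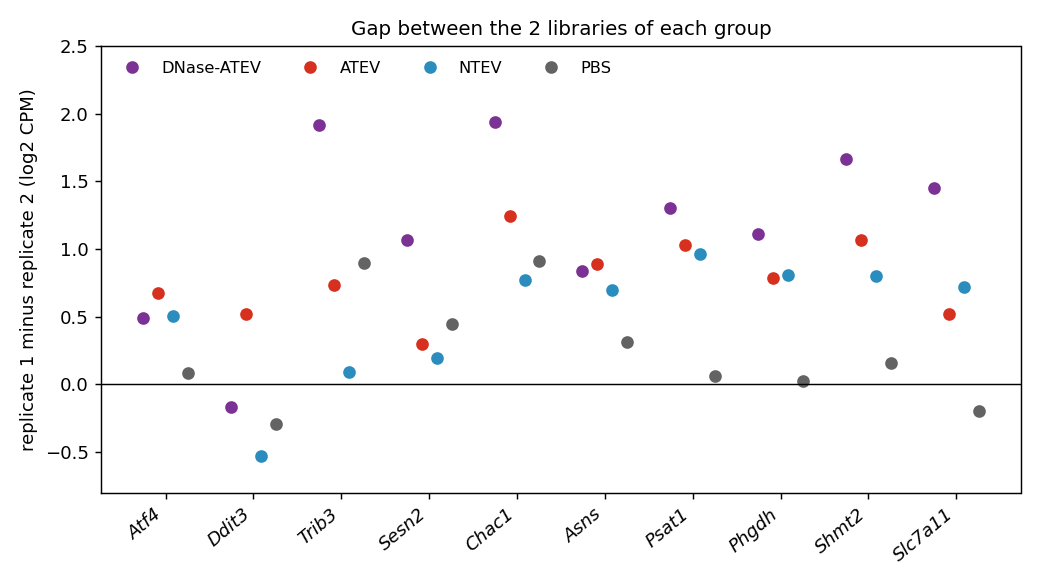
Log2 CPM of replicate 1 minus that of replicate 2 (vertical axis) for each member (horizontal axis), with 1 point per group coloured by group. The PBS points of Atf4, Psat1, Phgdh and Shmt2 lie between 0.025 and 0.16, while their vesicle group points lie between 0.49 and 1.66. The PBS points of Trib3, Chac1 and Sesn2, at 0.90, 0.91 and 0.45, lie above their NTEV points, at 0.093, 0.77 and 0.19.

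The library totals of replicate 1 and replicate 2 were 40345707 and 38260045 counts in DNase-ATEV, 44104540 and 43330950 in ATEV, 51749114 and 40115262 in NTEV, and 52451398 and 34385326 in PBS. The PBS pair had the widest difference in depth. The median gap over the members was smallest in PBS, but this did not hold for each member. The PBS gaps of Trib3, Chac1 and Sesn2 were 0.90, 0.91 and 0.45, against 0.093, 0.77 and 0.19 in NTEV. Of the epithelial markers, 0 of 7 were higher in replicate 1 in all 3 vesicle groups, against 32.1% of all genes tested. The cause of the gaps was not tested, and the labels give no batch.

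Genes that act beside the members moved with these gaps in part. The 20 cytosolic aminoacyl-tRNA synthetases charge tRNAs, and some but not all of them are known ATF4 targets. Of the 20, 18 were higher in replicate 1 in all 3 vesicle groups, with median log2 gaps of 0.91 in DNase-ATEV, 0.50 in ATEV, 0.49 in NTEV and 0.05 in PBS. The count was 10 of 13 for other enzymes of serine, glycine, proline and folate carbon metabolism, 9 of 11 tested amino acid transporters, 11 of 16 eIF2 kinases, eIF2 and eIF2B subunits and phosphatase subunits, and 11 of 17 chaperones and other stress genes of the endoplasmic reticulum. As a share it was lower in the remaining lists. There it was 9 of 21 (42.9%) other ATF4 pathway targets, 6 of 12 (50%) glutathione and NRF2 genes, and 5 of 14 (35.7%) tested genes of amino acid sensing upstream of mTORC1. Of all genes tested 32.1% did so, and the 35.7% is near that share. The median log2 gap of the other ATF4 pathway targets was 0.12 in DNase-ATEV, -0.16 in ATEV and -0.17 in NTEV. Taken group by group, replicate 1 was higher for 57.1% of them in DNase-ATEV, 42.9% in ATEV and 42.9% in NTEV. The shares of all genes tested were 49.5%, 52.2% and 50.7%.

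**Figure D4:**
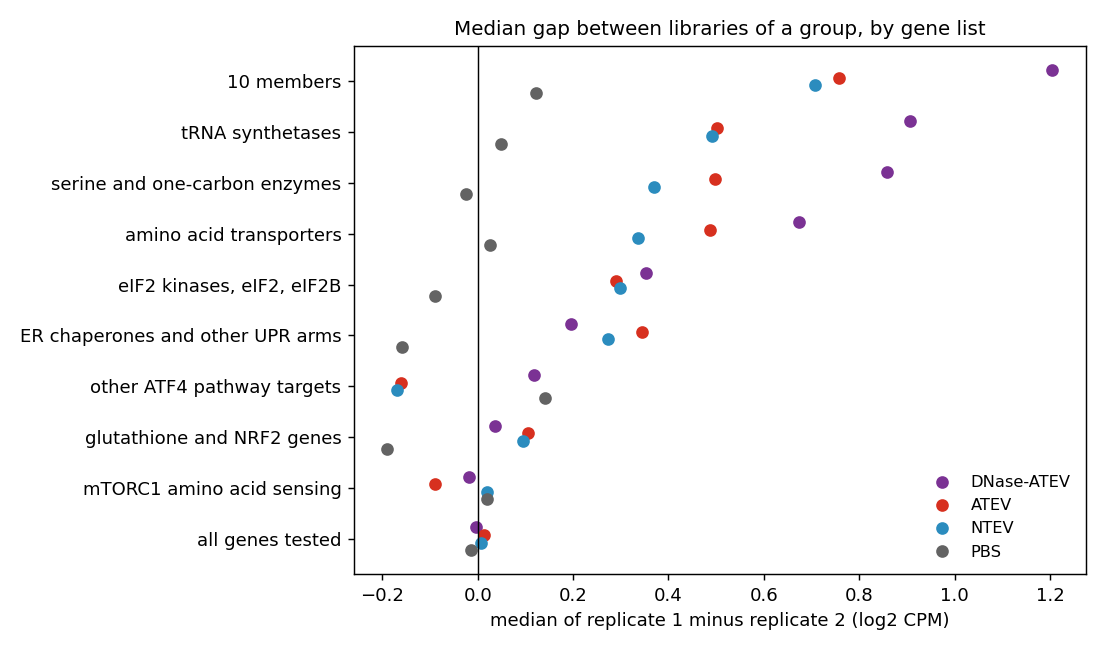
Median over the genes of a list of the log2 CPM of replicate 1 minus replicate 2 (horizontal axis), by list (vertical axis) and group (colour). Among the lists drawn the 10 members have the widest vesicle group medians, 1.20 in DNase-ATEV, 0.76 in ATEV and 0.71 in NTEV, and the medians of all genes tested lie between -0.015 and 0.013.

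The genes whose levels ran most like those of Atf4 and Asns over the 8 libraries were found by the root-mean-square difference of centred log2 CPM among 9352 protein-coding genes. This measure counts the size of a change between libraries as well as its direction. A gene that moves in the same direction by more therefore also ranks far down. For Atf4 they were Pask at 0.0615, then Rpf1 at 0.0707, Mrpl47 at 0.0717, Phospho2 at 0.0732 and Oxnad1 at 0.0761, where the median gene differed by 0.337. For Asns the nearest was Psph, the last enzyme of serine synthesis, at 0.0664, followed by Coq3 at 0.119, Steap1 at 0.125, Tars, the threonyl-tRNA synthetase, at 0.137 and Il18rap at 0.140, where the median gene differed by 0.432. Of the other members, Phgdh ranked 10, Atf4 23 and Psat1 40 in likeness to Asns, Shmt2 and Slc7a11 followed at 439 and 499, and Ddit3, Sesn2, Chac1 and Trib3 were distant at 5625, 6625, 6724 and 6924. In likeness to Atf4 the members ranked further down, with Asns at 263, Phgdh at 691, Slc7a11 at 2528, Psat1 at 2582, Shmt2 at 4471, Ddit3 at 4842, Sesn2 at 7040, Trib3 at 8061 and Chac1 at 8200.

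Among the wider pathway, 4 genes passed the test in some comparison. Of 126 list genes outside the members, 124 were tested. Those called higher and lower numbered 2 and 0 in DNase-ATEV against PBS, 3 and 0 in ATEV against PBS, and 2 and 1 for all vesicle groups against PBS, where DESeq2 called 9 and 7, 9 and 1, and 10 and 5. Over all genes tested DESeq2 called 1764, 1637 and 2340, in the same order. The edgeR test called 0 in the remaining comparisons: at an unadjusted p under 0.05 there were 8 higher and 10 lower in NTEV against PBS, 7 and 0 in ATEV against NTEV, 1 and 8 in DNase-ATEV against ATEV, and 5 and 6 in DNase-ATEV against NTEV. DESeq2 called 1 and 0, 2 and 0, 0 and 3, and 1 and 0 in these. Over all genes tested it called 983, 477, 417 and 198. As shares of the 124 genes, the edgeR calls were 1.61% in DNase-ATEV against PBS, 2.42% in ATEV against PBS and 2.42% for all vesicle groups, below the 3.01%, 5.19% and 6.36% of all genes. The unadjusted counts were 14.5% in NTEV against PBS, 5.65% in ATEV against NTEV, 7.26% in DNase-ATEV against ATEV and 8.87% in DNase-ATEV against NTEV, below the 19.1%, 8.23%, 11.3% and 10.0% of all genes. Of the 21 other ATF4 pathway targets taken alone, 18 were positive in DNase-ATEV, 18 in ATEV and 15 in NTEV against PBS. Their median log2 fold changes were 0.61, 0.49 and 0.27, against 0, -0.019 and -0.00062 over all genes. The median in DNase-ATEV was 0.39 without DNase-ATEV replicate 1 and 0.83 without DNase-ATEV replicate 2. In ATEV it was 0.60 without ATEV replicate 1 and 0.24 without ATEV replicate 2. In NTEV it was 0.38 without NTEV replicate 1 and 0.080 without NTEV replicate 2. Both vesicle libraries lay above both PBS libraries for 13 of the 21 in DNase-ATEV and 10 in ATEV, against 29.7% and 25.2% of all genes. The edgeR calls among the 21, 2 in DNase-ATEV and 2 in ATEV against PBS, were Cebpb and Bbc3. The lists were drawn up with earlier results of these data known.

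Cebpb encodes C/EBP beta, a partner of ATF4 on the composite element. It had 46.1 and 49.8 CPM in DNase-ATEV, 58.4 and 65.2 CPM in ATEV, 26.0 and 43.2 CPM in NTEV, and 19.0 and 21.8 CPM in PBS. Every vesicle library lay above both PBS libraries, the ATEV pair highest. It rose in ATEV by a log2 fold change of 1.60 ± 0.24 (SE; edgeR adjusted p = 0.0143) and in DNase-ATEV by 1.24 ± 0.24 (edgeR adjusted p = 0.0470). When either PBS library or ATEV replicate 2 was left out the ATEV call was lost, with edgeR adjusted p-values up to 0.134, and the DNase-ATEV call was lost whichever library was left out, up to 0.238.

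Bbc3 encodes PUMA, a pro-apoptotic protein induced by p53 and by CHOP. It had 20.6 and 19.0 CPM in DNase-ATEV, 16.7 and 17.8 CPM in ATEV, 13.2 and 17.7 CPM in NTEV, and 8.86 and 8.84 CPM in PBS. All 6 vesicle libraries lay above both PBS libraries. It rose by a log2 fold change of 1.16 ± 0.19 in DNase-ATEV (edgeR adjusted p = 0.0301) and 0.96 ± 0.19 (SE) in ATEV (edgeR adjusted p = 0.0354), and both calls were lost whichever library was left out, with adjusted p-values up to 0.227 and 0.210. Cebpb and Bbc3 are rich in GC, at the 99.9th and 99.6th percentile of tested coding genes. Among the members, Sesn2, Trib3 and Chac1 are at percentiles 92.7, 91.2 and 88.6. Shmt2 and Phgdh, whose log2 fold changes against PBS were negative, are at 88.3 and 87.6. Over 12732 coding genes the Spearman correlation of GC content with the log2 fold change against PBS was 0.307 in DNase-ATEV, 0.378 in ATEV and 0.387 in NTEV, a description across genes, and its part in these changes was not tested.

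Cth encodes cystathionine gamma-lyase, which makes cysteine from cystathionine. It had 20.5 and 16.4 CPM in DNase-ATEV, 24.1 and 19.6 CPM in ATEV, 23.4 and 19.3 CPM in NTEV, and 37.5 and 30.7 CPM in PBS. All vesicle libraries lay below both PBS libraries, and over the 3 vesicle groups Cth fell by 0.74 on the log2 scale (SE 0.16, edgeR adjusted p = 0.0417). The call held when ATEV replicate 1 was left out and was lost without any of the other libraries, up to an adjusted p of 0.264. Eif2ak2 encodes PKR, the eIF2 alpha kinase activated by double-stranded RNA and itself interferon-inducible. It had 64.8 and 70.5 CPM in DNase-ATEV, 82.7 and 84.1 CPM in ATEV, 55.6 and 56.4 CPM in NTEV, and 59.2 and 52.1 CPM in PBS. The ATEV pair was highest, and against PBS it rose by a log2 fold change of 0.58 ± 0.13 (SE; edgeR adjusted p = 0.0447), a call lost without the filter on low counts (adjusted p = 0.0530) and whichever library was left out (up to 0.276).

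**Figure D5:**
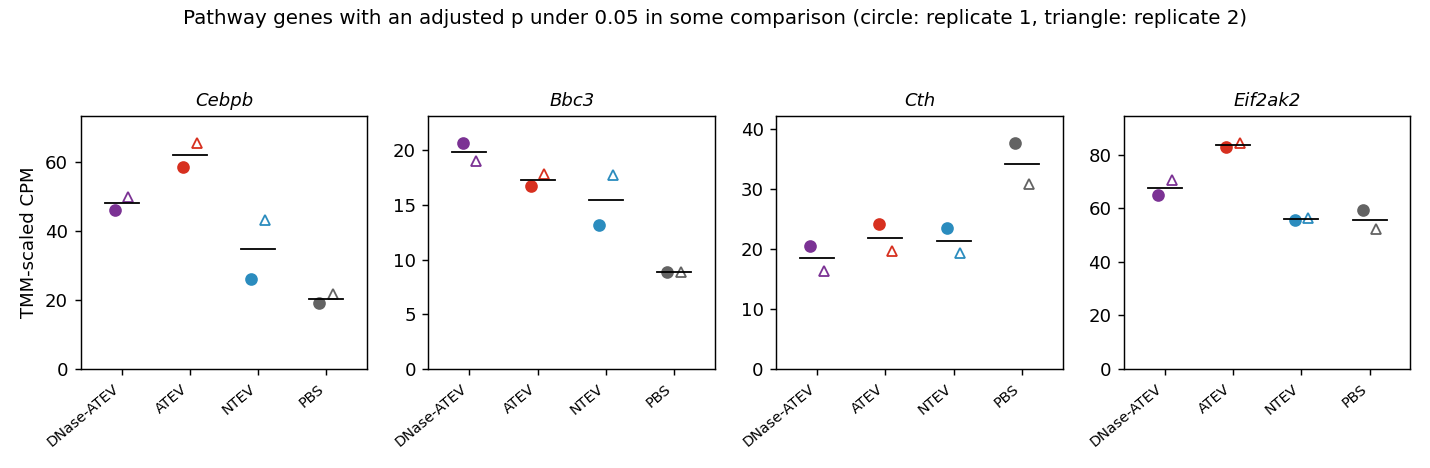
TMM-scaled CPM (vertical axis, from 0) of the 4 pathway genes that passed the test in some comparison, by group, with replicate 1 as a filled circle, replicate 2 as an open triangle and the mean as a line. Cebpb reaches 65.2 CPM in ATEV against 21.8 CPM at most in PBS, and Cth lies below its PBS values in each vesicle group.

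Most named genes of the response's own machinery and of its enzyme lists did not pass the edgeR test as fitted here, and several passed under other settings. Ppp1r15a, which encodes the GADD34 subunit that reverses eIF2 alpha phosphorylation, had a log2 fold change of 1.08 over all vesicle groups against PBS (edgeR adjusted p = 0.108), and Eif2s2, the beta subunit of eIF2, had -0.76 (0.116). Among transporters Slc7a6 had -0.53 (0.0674) and Slc38a1 -0.36 (0.410), and among folate enzymes Aldh1l1 had 1.02 (0.163) and Mthfd2l -0.37 (0.182), each as log2 fold change with its edgeR adjusted p in the same comparison. The glutathione genes Gclm and Gsr had -0.49 (0.0978) and -0.64 (0.123), the chaperone Canx and the ubiquitin ligase Syvn1 had -0.53 (0.0806) and 0.37 (0.0914), and the mTORC1 regulators Wdr24 and Rragc had 0.49 (0.0674) and -0.51 (0.0823). The synthetases Dars and Farsb had -0.28 (0.112) and -0.51 (0.135). Of these 14 genes, 8 passed without the filter on low counts (Ppp1r15a, Eif2s2, Slc7a6, Aldh1l1, Gclm, Gsr, Canx, Rragc), with adjusted p-values of 0.00342 for Ppp1r15a to 0.0464 for Gclm. DESeq2 called 7 (Ppp1r15a, Slc7a6, Aldh1l1, Canx, Syvn1, Wdr24, Rragc), and the fit with a replicate block called 7 (Ppp1r15a, Eif2s2, Slc7a6, Farsb, Gsr, Canx, Wdr24). Over all genes these settings called 2191 without the filter, 2340 with DESeq2 and 1826 with the block. The 14 genes were taken for having the smallest p of their lists in this same comparison. Their passing under another setting of the same data is therefore no separate support. In NTEV against PBS, 19 of 20 synthetases had a negative log2 fold change and 13 of 20 had both NTEV libraries below both PBS libraries, where 49.8% of all genes were positive and 30.9% lay below in this way. Their median there was -0.35, and it was -0.087 without NTEV replicate 2 and -0.50 without NTEV replicate 1. Neither edgeR nor DESeq2 called any of them, and 1 was under an unadjusted p of 0.05 in edgeR. In ATEV against NTEV all 20 synthetases were positive in log2 fold change, against 51.6% of all genes, with a median of 0.17 that was -0.024 without ATEV replicate 1 and 0.030 without NTEV replicate 2, and 0 of 20 passed the edgeR test, 1 being under an unadjusted p of 0.05 and 0 called by DESeq2.

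In DNase-ATEV against ATEV the pathway genes with the smallest p included Keap1, the inhibitor of NRF2, at a log2 fold change of -0.64 (edgeR adjusted p = 0.100) and Wars, the tryptophanyl-tRNA synthetase, which interferon gamma induces, at -1.43 (adjusted p = 0.205). Eif2ak1, which encodes the haem-regulated kinase HRI, had -0.45 (adjusted p = 0.228). DESeq2 called these 3, with adjusted p-values of 1.44e-04 for Keap1, 0.00576 for Wars and 0.0271 for Eif2ak1. Wars was at 1.01 (adjusted p = 0.156) and Keap1 at 0.52 (adjusted p = 0.0583) in ATEV against PBS. There Keap1 passed with RLE scaling (adjusted p = 0.0452), DESeq2 (0.00154) and the replicate block (0.0496), and Wars passed with DESeq2 (0.0458) and without the filter on low counts (0.00907). In DNase-ATEV against ATEV Wars also passed edgeR without the filter (adjusted p = 0.000811). Its ATEV libraries were far apart, at 267 and 124 CPM. With 1 library left out, its log2 fold change ran from 0.40 to 1.46 in ATEV against PBS. In DNase-ATEV against ATEV it ran from -1.88 to -0.80, and that of Keap1 from -0.75 to -0.56. Keap1, Wars and Eif2ak1 were taken for having the smallest p of their lists in DNase-ATEV against ATEV. Passing under another setting of the same data is therefore no separate support for them.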

How the data were processed

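RNA of 8 libraries (4 groups of 2) was sequenced after TruSeq stranded mRNA preparation (per the labels' protocols). The authors deposited raw counts per Ensembl gene for all libraries in 1 table. The build mm9, Cufflinks 2.1.1, TopHat, TopHat2 2.0.11 and bcl2fastq 2.19 are named, per the submitters' processing notes, with no role or order; for the counter, annotation and strand setting nothing is stated (not given in the sources used here). Symbols and exon lengths came from GENCODE M21, promoters from RefSeq (GRCm38.p6). Of 42687 genes, 42250 had a symbol. The full list of KPCY alleles is not reported here.

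Counts were fitted with edgeR 4.0.16 (R 4.3.3, limma 3.58.1): filterByExpr, TMM scaling and the quasi-likelihood test over all 4 groups (4 residual degrees of freedom), with Benjamini-Hochberg adjustment and a threshold of 0.05. Log2 CPM used a prior count of 2. DESeq2 1.42.0 was an alternative, with RLE scaling, no filter, a replicate block and leaving out each library. In a simulation of the ATEV and PBS comparison, in which 200 of the 15197 genes were changed, 37% of 2-fold and 95% of 4-fold changes were called. The changed genes were drawn from all genes with mean log2 CPM above 2, each with its own spread. The share for genes that vary as widely as Chac1 (SE 0.68 in ATEV against PBS) was not computed. Libraries of a group differed by more than sampling noise (chi-square per gene 39.0 to 145). Depth was 34385326 to 52451398 counts, so counting error is small beside the spread between libraries.

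The members and lists were chosen with earlier results of these data known. Named beside the members were, from each list, up to 3 genes with the smallest p for all vesicle groups against PBS, for DNase-ATEV against ATEV and for ATEV against PBS, each list gene called where a list had 5 or fewer calls, and the 5 genes most like Atf4 and Asns with mean log2 CPM of at least 3. Of these, some that did not pass are not printed. GC content was that of the longest transcript, and the check of it was added after the data were seen.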

Additional observations from a re-analysis of the deposited data

How the results depend on the processing

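The finding that 0 of 10 members passed held with RLE scaling, DESeq2, the replicate block and each library left out; without the filter on low counts 1 member passed, Sesn2 in DNase-ATEV against PBS. The count of all genes called moved more. Without the filter it was 1520 in DNase-ATEV against PBS, 1454 in ATEV against PBS, 773 in NTEV against PBS, 2191 for all vesicle groups against PBS, 459 in ATEV against NTEV, 343 in DNase-ATEV against ATEV and 180 in DNase-ATEV against NTEV. With DESeq2, in the same order of comparisons, it was 1764, 1637, 983, 2340, 477, 417 and 198. With RLE scaling every count stayed within 1.5 times. With 1 library left out (the lone library of a group is then assumed to vary like the others) it was 11 to 68 in DNase-ATEV against PBS, 131 to 401 in ATEV against PBS, 5 to 28 in NTEV against PBS and 43 to 984 in all vesicle groups against PBS, and 71 to 166 in ATEV against NTEV, 27 to 99 in DNase-ATEV against ATEV and 1 to 5 in DNase-ATEV against NTEV. The cause was not tested.

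The replicate numbers only name the libraries: nothing in the labels ties equal numbers together. Deviations of same-numbered libraries correlated at 0.485 to 0.552 between vesicle groups and at -0.236 to -0.141 between vesicle groups and PBS. With the number as a replicate block, the count of genes called was 1052 in DNase-ATEV against PBS, 330 in NTEV against PBS, 1826 for all vesicle groups against PBS and 24 in DNase-ATEV against NTEV, and the log2 fold change of Shmt2 in DNase-ATEV against ATEV changed sign, to -0.019. With the PBS numbers crossed in the block, chosen after seeing the data, it was 4378, 3298, 3567, 5123, 607, 481 and 152 in the order of comparisons above.

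Leaving out 1 library changed the sign of the log2 fold change of members in 62 fits, none of which passed the test. In DNase-ATEV against PBS the ranges were Atf4 -0.34 to 0.13, Ddit3 -0.099 to 0.20, Asns -0.79 to 0.024, Trib3 -0.26 to 1.63, Chac1 -0.29 to 1.63, Psat1 -0.93 to 0.35, Phgdh -0.71 to 0.37, Shmt2 -1.12 to 0.51 and Slc7a11 -0.93 to 0.50. In ATEV against PBS the ranges were Atf4 -0.46 to 0.17, Ddit3 -0.069 to 0.41, Asns -0.74 to 0.10, Chac1 -0.44 to 0.80, Psat1 -0.81 to 0.17, Phgdh -0.58 to 0.16 and Shmt2 -0.75 to 0.27. In NTEV against PBS the ranges were Trib3 -0.62 to 0.27, Chac1 -0.89 to 0.038, Phgdh -0.74 to 0.027 and Sesn2 -0.049 to 0.39. In all vesicle groups against PBS the ranges were Ddit3 -0.18 to 0.12 and Chac1 -0.15 to 0.77. In ATEV against NTEV the ranges were Asns -0.14 to 0.73, Psat1 -0.16 to 0.97, Phgdh -0.27 to 0.59, Shmt2 -0.34 to 0.71 and Slc7a11 -0.095 to 0.61. In DNase-ATEV against ATEV the ranges were Atf4 -0.28 to 0.38, Ddit3 -0.36 to 0.15, Asns -0.54 to 0.42, Trib3 -0.83 to 1.06, Chac1 -0.59 to 1.40, Psat1 -0.71 to 0.66, Phgdh -0.56 to 0.52, Shmt2 -0.98 to 0.67, Slc7a11 -0.70 to 0.73 and Sesn2 -0.45 to 0.58. In DNase-ATEV against NTEV the ranges were Asns -0.19 to 0.64, Trib3 -0.041 to 1.85, Psat1 -0.28 to 1.03, Phgdh -0.41 to 0.67, Shmt2 -0.71 to 0.92 and Slc7a11 -0.47 to 0.96. Counting error at these depths is small beside the spread between libraries.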
